A study of Homo sapiens with 2 samples.

Results

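The 41 genes described here belong to the receptor kinase, RAS and ERK pathway. They were picked by name and role out of the 55773 gene symbols in the tables, with earlier results of these data known. They are 9 receptor tyrosine kinases, 6 adaptors and exchange factors, 3 RAS GTPases, 2 proteins that switch RAS off, 3 RAF kinases and scaffolds, 3 MEK and ERK kinases, 8 feedback inhibitors and 7 output genes of the pathway. Their transcripts were measured by RNA-seq in NCI-H2030, an established cell line from a human lung adenocarcinoma, in 1 library treated with miR-494-3p AS (AS below) and 1 library treated with SC (SC below). The labels spell out neither AS nor SC, and they give no dose, no time and no other difference between the libraries. With 1 library a group there were no replicates, so every difference below is one between these 2 libraries, with no replicate check and no test.

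Receptor tyrosine kinases at the cell surface bind growth factors and recruit adaptors such as GRB2, which bring the exchange factors SOS1 and SOS2 to RAS. RAS loaded with GTP activates RAF kinases, which phosphorylate MEK, and MEK phosphorylates ERK. ERK drives the transcription of output genes and of its own inhibitors, among them dual specificity phosphatases and the Sprouty and SPRED proteins, and the upper steps of the pathway are often altered in lung adenocarcinoma.

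The sequence of miR-494-3p and the matching stretches in the 3′ UTRs of members are shown because the treatment is named for this microRNA. The microRNA sequence is that of RefSeq on GRCh38.p14 (chr14:101029681-101029702, plus strand, 22 bases), with bases 2 to 8, the seed, in capitals. The 3′ UTR stretches come from the longest 3′ UTR among the gene's coding transcripts in GENCODE 29, and capitals mark the letters searched. These were ATGTTTC, which pairs with the whole seed, TGTTTCA, which pairs with the seed short of its last base and adds an A, and ATGTTTCA, which holds both. The first 5 genes shown are all the members with such a stretch that were at least 2-fold higher in AS, IGF1R is the measured member with the 8-base stretch, and SHC1 is shown as a member of nearly equal level in both libraries.
hsa-miR-494-3p: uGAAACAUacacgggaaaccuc
MET, 3′ UTR bases 422 to 428 of 2262: gaattctagTGTTTCAaaacactttt
PTPN11, bases 3865 to 3871 of 4121: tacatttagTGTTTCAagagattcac
NF1, bases 1519 to 1525 of 3522: ctgtagtgcTGTTTCAttagaggatt
NF1, bases 2581 to 2587 of 3522: ggtttgtagATGTTTCccctgacttg
KSR1, bases 1035 to 1041 of 4503: ctgggagtcATGTTTCtcttctctct
ETV1, bases 1545 to 1551 of 4638: agggtatgtTGTTTCAttcaccttga
IGF1R, bases 5648 to 5655 of 7088: actaattaaATGTTTCAttgcatttt
SHC1, bases 1442 to 1448 of 1505: gctgtttggATGTTTCcacgggtctc

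Levels are given in TPM (transcript levels scaled to a fixed total per library), as deposited for annotated genes, and the log2 ratio is that of AS over SC after 1 was added to both, which understates the ratio of genes of low level. A gene that averaged 1 TPM or more across AS and SC is called measured, and a log2 ratio of at least 1 in either direction is called 2-fold. The tables also hold a mean coverage per gene, which was put on the TPM scale of its library (scaled coverage) and compared with 0.1 added. TPM and scaled coverage are equal where the deposited coverage is 1 constant times the FPKM, and TPM above scaled coverage means that the gene was credited with more expression than its mean coverage. The depth of the libraries was similar, at a coverage of 3.54 per unit of FPKM in AS and 3.62 in SC. The number of reads per gene was not at hand, so the counting error of each value is unknown. Mitochondrial transcripts took 16.2% of annotated TPM in AS and 14.6% in SC. Of 7 epithelial markers, 4 (KRT7, KRT8, KRT18 and CLDN4) reached 1 TPM in both libraries, with a sum over the list of 883 TPM in AS and 1113 TPM in SC. KRT19 was listed at 0 in both, and CDH1 had 0.014 TPM in AS and 0.007 TPM in SC. EPCAM had 1.84 TPM in AS and 0.60 TPM in SC. Of 7 lung epithelial markers only NAPSA reached 1 TPM in both, with a list sum of 1.18 TPM in AS and 1.75 TPM in SC. NKX2-1, a defining factor of lung epithelium, had 0.03 TPM in both libraries, and the surfactant genes SFTPA1 and SFTPC were listed at 0. Of 5 leukocyte markers, CD68, a lysosomal protein, had 203 TPM in AS and 285 TPM in SC, and PTPRC and CD3E, the defining ones, were listed at 0 in both. Of 5 fibroblast markers, 3 (COL1A1, COL3A1 and LUM) reached 1 TPM in both, with a list sum of 25.4 TPM in AS and 32.2 TPM in SC, and COL1A2 was listed at 0. None of 4 endothelial markers reached 1 TPM, with a list sum of 0.0511 TPM in AS and 0.149 TPM in SC.

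Of the 41 members, 39 were measured, and 8 of these (20.5%) were at least 2-fold higher in AS, against 16.5% of all 13669 measured genes. None was at least 2-fold lower in AS, against 2.17% of all measured genes. The 8 were the receptors MET and EGFR, the exchange factor SOS1, the phosphatase PTPN11, the RAS inactivator NF1, the scaffold KSR1, the inhibitor SPRY1 and the transcription factor ETV1. The other 31 lay within 2-fold. The median log2 ratio was 0.53 over the members and 0.28 over all measured genes. In these bulk cultures, fewer cells expressing a gene and less RNA per cell cannot be told apart.

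On scaled coverage 8 members were also at least 2-fold higher in AS, against 19.3% of all measured genes, and 0 were lower, against 2% of all measured genes. Only MET, SOS1, PTPN11 and ETV1 were 2-fold higher on both measures. The smaller value added to coverage leaves larger ratios in genes of low level, so part of a gap between the measures can be the added value and not the column. EGFR, NF1, KSR1 and SPRY1 were within 2-fold on scaled coverage whether 0.1 or 1 was added. SOS2, DUSP6, SPRED1 and EGR1 passed 2-fold in either column with 0.1 added and in neither with 1 added. With 1 added to coverage, 3 members (7.69%) were 2-fold higher (MET, SOS1 and PTPN11), and ETV1 had a log2 ratio of 0.64. The share of all measured genes with 1 added to coverage is not given here, and the 19.3% above is for 0.1 added. The median log2 ratio on scaled coverage was 0.39 over the members and 0.33 over all measured genes.

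**Figure D1:**
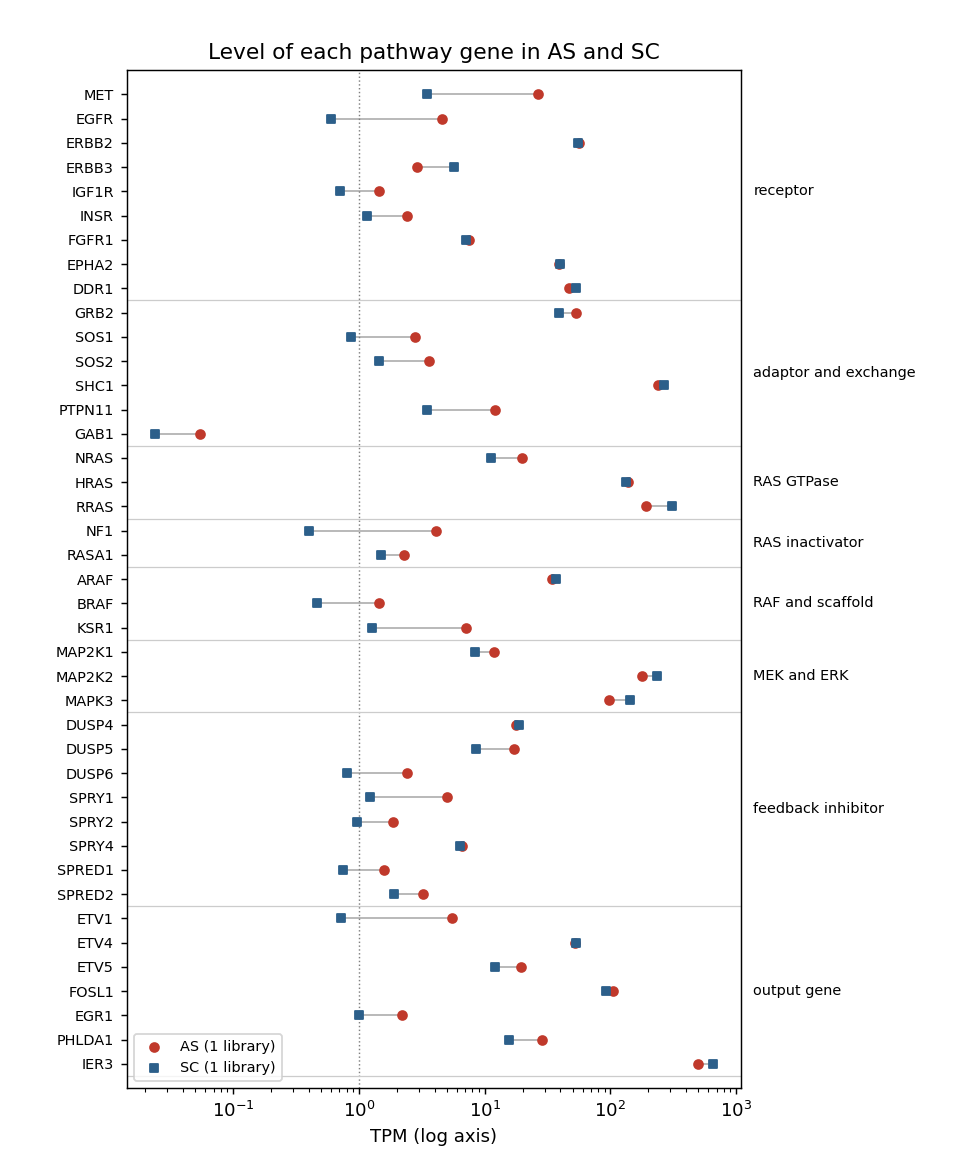
TPM of each of the 41 members (rows) in AS (circles) and in SC (squares) on a log axis, 1 library each, grouped by role in the pathway, with a dotted line at 1 TPM. Most pairs of points lie close together, and the widest gaps are those of NF1, at 4.13 TPM in AS and 0.40 TPM in SC, and of EGFR and MET.

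Among the receptors, MET, the receptor for hepatocyte growth factor, had the largest log2 ratio. MET (ENSG00000105976, GRCh37 chr7:116312444-116438440, plus strand) had 26.5 TPM in AS and 3.45 TPM in SC, a log2 ratio of 2.63. Its mean coverage was 19.8 in AS and 6.33 in SC, and on scaled coverage the log2 ratio was smaller, at 1.75. MET was therefore higher in AS on both measures, 7.69-fold in TPM and 3.44-fold in scaled coverage. The tables also list loci assembled from the reads. A single assembled locus covered 100% of the span of MET in AS, whereas the largest of 5 loci covered 8.31% of it in SC.

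EGFR, the receptor for epidermal growth factor, had 4.61 TPM in AS and 0.60 TPM in SC, a log2 ratio of 1.81. Its mean coverage was 1.85 in AS and 1.10 in SC, with a log2 ratio of 0.79 on scaled coverage. The difference in EGFR was thus smaller in coverage than in TPM. The TPM of EGFR was 4.16 times its scaled coverage in AS and equal to it, at 1.00 times, in SC. The largest assembled locus covered 58.4% of the gene in AS and 22.8% in SC.

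ERBB3, a receptor of the same family that lacks strong kinase activity of its own, went the other way in TPM, with 2.89 TPM in AS and 5.72 TPM in SC and a log2 ratio of -0.79. Its scaled coverage was almost the same, at 1.58 in AS and 1.57 in SC. TPM was 1.82 times scaled coverage in AS and 3.65 times in SC, so the order of the libraries in ERBB3 depended on the column read. ERBB2, their partner receptor, had 56.1 TPM in AS and 54.8 TPM in SC, a log2 ratio of 0.03. It had the highest TPM of the 9 receptors in both libraries, whereas on scaled coverage EPHA2 and DDR1 were above it in both. The level of ERBB2 over EGFR was 12.2 in AS and 91.5 in SC in TPM, and 13.7 in AS and 25.5 in SC in scaled coverage.

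The insulin family receptors were low. INSR, the insulin receptor, had 2.40 TPM in AS and 1.16 TPM in SC, a log2 ratio of 0.66, and its scaled coverage gave 0.63. IGF1R, the receptor for insulin-like growth factors, had 1.45 TPM in AS and 0.70 TPM in SC, a log2 ratio of 0.53, against 0.17 on scaled coverage. The assembled locus that best overlapped IGF1R was on the other side, at 0.69 TPM in AS and 10.1 TPM in SC, and it covered 33.1% of the gene in AS and 23.5% in SC. The remaining receptors were close to equal. EPHA2, an ephrin receptor, had 39.0 TPM in AS and 39.9 TPM in SC. DDR1, a collagen receptor, had 46.9 TPM in AS and 53.6 TPM in SC. FGFR1, a receptor for fibroblast growth factors, had 7.56 TPM in AS and 7.11 TPM in SC.

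Among the adaptors and exchange factors, PTPN11 and SOS1 were 2-fold higher in AS. PTPN11, the phosphatase SHP2 that receptors need to switch on RAS, had 12.0 TPM in AS and 3.46 TPM in SC, a log2 ratio of 1.55. Mean coverage was 17.3 in AS and 6.34 in SC, and the scaled coverage gave a log2 ratio of 1.56. With 0.1 added to both columns, the log2 ratio of PTPN11 was 1.77 on TPM and 1.56 on scaled coverage. One assembled locus covered 99.4% of PTPN11 in AS, and the largest of 3 covered 9.51% in SC. RPL6, a ribosomal protein gene of high level on the opposite strand of the same place, had 1540 TPM in AS and 895 TPM in SC, and its part in the reads of PTPN11 was not tested.

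SOS1 and SOS2, the exchange factors that load RAS with GTP, were both higher in AS, by similar amounts. SOS1 had 2.80 TPM in AS and 0.86 TPM in SC, a log2 ratio of 1.03, and with 0.1 added it was 1.59 on TPM and 1.56 on scaled coverage. SOS2 had 3.61 TPM in AS and 1.45 TPM in SC, a log2 ratio of 0.91, and with 0.1 added it was 1.26 in both columns, which are equal for SOS2. Both genes were below 4 TPM in both libraries, a level at which the addition of 1 pulls the TPM ratio down. GRB2, the adaptor that carries SOS to receptors, had 53.7 TPM in AS and 38.9 TPM in SC, a log2 ratio of 0.46. SHC1, an adaptor between receptors and GRB2, was the most abundant gene of the group, with 240 TPM in AS and 268 TPM in SC and a log2 ratio of -0.16. GAB1, a docking protein for PTPN11, was not measured, at 0.05 TPM in AS and 0.02 TPM in SC.

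**Figure D2:**
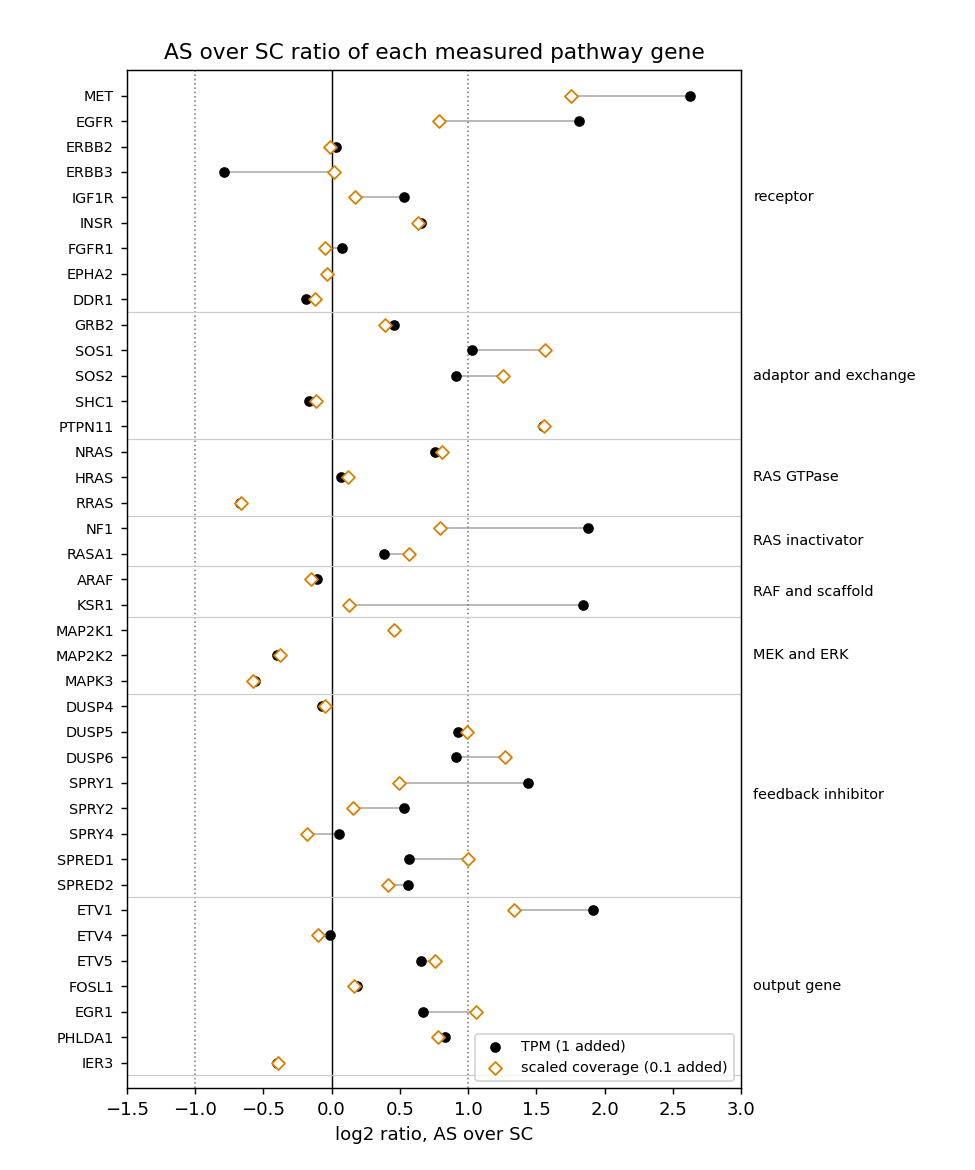
Log2 ratio of AS over SC for each measured member (rows), on TPM with 1 added (black circles) and on scaled coverage with 0.1 added (open diamonds), grouped by role, with lines at the 2-fold limits. MET, SOS1, PTPN11 and ETV1 lie past 1 on both measures, and KSR1 shows the widest gap between its TPM and coverage points.

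NRAS, a RAS GTPase, had 19.7 TPM in AS and 11.2 TPM in SC, a log2 ratio of 0.76, and TPM and scaled coverage were equal in both libraries. HRAS, another RAS GTPase, was near equal, with 139 TPM in AS and 133 TPM in SC. RRAS, a relative of RAS with a role in adhesion, was lower in AS, with 192 TPM in AS and 306 TPM in SC and a log2 ratio of -0.67 on both measures. RRAS had the lowest log2 ratio on scaled coverage of all the measured members. These 3 genes were at different levels in relation to one another in the libraries. RRAS stood at 9.76 times the TPM of NRAS in AS and 27.3 times in SC, and HRAS stood at 7.08 times NRAS in AS and 11.8 times in SC.

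Of the proteins that switch RAS off, NF1, the GTPase-activating protein neurofibromin, had 4.13 TPM in AS and 0.40 TPM in SC, a log2 ratio of 1.88. Mean coverage of NF1 was 1.10 in AS and 0.62 in SC, with a log2 ratio of 0.80 on scaled coverage. TPM was 6.24 times scaled coverage in AS and 1.18 times in SC. The assembled locus that best overlapped NF1 had the opposite order, with 1.79 TPM in AS and 3.66 TPM in SC and a log2 ratio of -0.74, and 7 loci lay over the gene in each library. The difference in NF1 therefore had a different size, or sign, in each of the 3 measures. RASA1, another GTPase-activating protein for RAS, had 2.28 TPM in AS and 1.51 TPM in SC, a log2 ratio of 0.39.

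ARAF, a RAF kinase, had 34.3 TPM in AS and 37.1 TPM in SC, a log2 ratio of -0.11. BRAF, the RAF kinase of strongest basal activity, missed the measured level, with 1.43 TPM in AS and 0.46 TPM in SC. NDUFB2, on the opposite strand over BRAF, had 224 TPM in AS and 198 TPM in SC, and whether reads were assigned by strand is not stated. KSR1, a scaffold that holds RAF, MEK and ERK together, had 7.13 TPM in AS and 1.26 TPM in SC, a log2 ratio of 1.85. Its mean coverage did not differ, at 2.05 in both libraries, and scaled coverage gave a log2 ratio of 0.13. The TPM of KSR1 was 5.80 times its scaled coverage in AS and 1.13 times in SC. KSR1 was thus the member whose large TPM ratio had the least counterpart in coverage, although the assembled locus had 16.3 TPM in AS and 3.50 TPM in SC.

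The MEK and ERK kinases all lay within 2-fold. MAP2K1, the kinase MEK1, had 11.9 TPM in AS and 8.42 TPM in SC, a log2 ratio of 0.46. MAP2K2, the kinase MEK2, had 177 TPM in AS and 234 TPM in SC, a log2 ratio of -0.40. MAPK3, the kinase ERK1, had 97.3 TPM in AS and 144 TPM in SC, a log2 ratio of -0.56. MAP2K2 and MAPK3 were thus lower in AS while MAP2K1 was higher, on both measures. The TPM of MAP2K2 was 14.8 times that of MAP2K1 in AS and 27.7 times in SC. TPM was 9.51 times scaled coverage for MAP2K1 in AS and 9.48 times in SC, the highest such ratios among the members, so a large gap between the columns did not always come with a difference between the libraries.

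**Figure D3:**
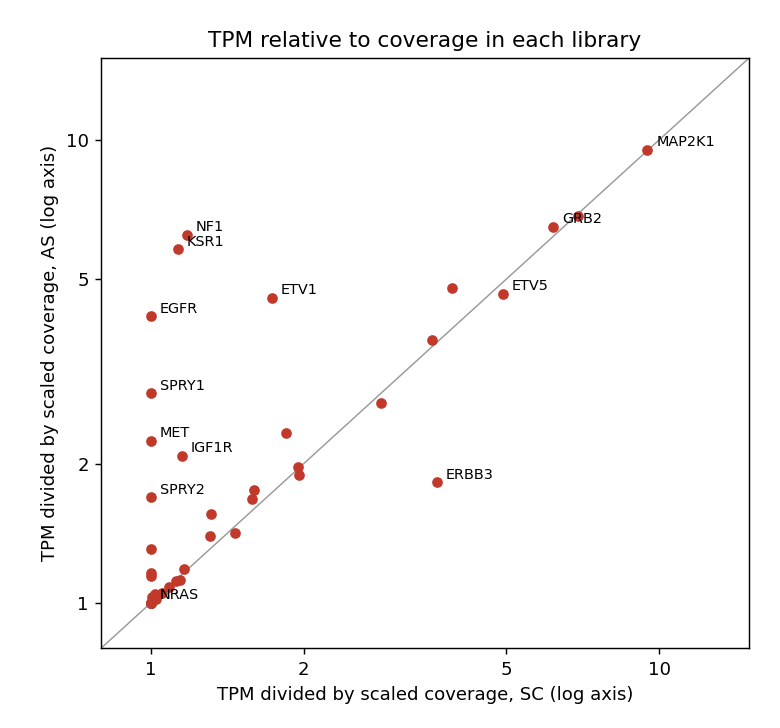
TPM divided by scaled coverage for each of the 41 members, with AS on the vertical and SC on the horizontal log axis and a line where both are equal, and 1 means that coverage is 1 constant times FPKM. NF1, KSR1, EGFR, SPRY1, MET and ETV1 stand higher in AS than in SC, ERBB3 stands lower, and MAP2K1 has high values in both libraries.

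TPM equalled scaled coverage, within 1%, in 6 members in AS and 14 in SC, and in 8 of these in SC alone. An assembled locus covered at least 90% of the gene's span for 26 members in AS and 19 in SC, and the median share covered was 99.4% in AS and 79.1% in SC over the measured members. The part of this incomplete assembly in the TPM ratios was not tested. On the TPM of assembled loci, which could be compared for 37 members, 7 were at least 2-fold higher in AS, against 16% of 13272 genes, and 1 was lower, against 2.91%. The 7 were MET, SOS1, SOS2, PTPN11, KSR1, SPRY4 and ETV1, and the 1 lower was IGF1R.

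Among the feedback inhibitors, which ERK induces and which damp it, the phosphatases differed from each other. DUSP5, a phosphatase of ERK in the nucleus, had 17.2 TPM in AS and 8.57 TPM in SC, a log2 ratio of 0.92, and 0.99 on scaled coverage. DUSP6, a phosphatase of ERK in the cytoplasm, had 2.41 TPM in AS and 0.81 TPM in SC, a log2 ratio of 0.91. With 0.1 added the log2 ratio of DUSP6 was 1.46 on TPM and 1.27 on scaled coverage, and no assembled locus lay over it in SC. DUSP4, a related phosphatase of the nucleus, was close to equal, at a log2 ratio of -0.07, with 17.7 TPM in AS and 18.7 TPM in SC. DUSP4 and DUSP5 stood at 1.03 to 1 in AS and 2.18 to 1 in SC in TPM.

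SPRY1, a Sprouty protein that inhibits receptor signals to RAS, had 5.06 TPM in AS and 1.24 TPM in SC, a log2 ratio of 1.44. Mean coverage of SPRY1 was 2.97 in AS and 2.27 in SC, and scaled coverage gave 0.50, so it was within 2-fold in that column. SPRY2, a close relative, had 1.86 TPM in AS and 0.97 TPM in SC, a log2 ratio of 0.53. SPRY4, the most abundant of the Sprouty members, had 6.63 TPM in AS and 6.34 TPM in SC, a log2 ratio of 0.06, and -0.18 on scaled coverage. Its assembled locus had 6.63 TPM in AS and 2.52 TPM in SC, so SPRY4 was past 2-fold on that measure alone. SPRED1, which brings NF1 to the membrane, had 1.59 TPM in AS and 0.74 TPM in SC, a log2 ratio of 0.57. Its scaled coverage equalled its TPM in both libraries, and with 0.1 added the log2 ratio of SPRED1 was 1.00 in both columns. SPRED2, its relative, had 3.25 TPM in AS and 1.89 TPM in SC, a log2 ratio of 0.56.

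Among the output genes, ETV1, an ETS transcription factor downstream of ERK, had 5.51 TPM in AS and 0.73 TPM in SC, a log2 ratio of 1.92. Mean coverage was 2.02 in AS and 0.77 in SC, scaled coverage gave 1.34 with 0.1 added and 0.64 with 1 added, and the assembled locus, which covered at least 95% of the gene in both libraries, gave 1.38. ETV1 was thus higher in AS on all 3 measures. ETV5, a related factor, had 19.6 TPM in AS and 12.1 TPM in SC, a log2 ratio of 0.66, and ETV4, the third of this ETS subfamily, had 52.5 TPM in AS and 53.1 TPM in SC. EGR1, an early response transcription factor, had 2.19 TPM in AS and 1.00 TPM in SC, a log2 ratio of 0.67. Its scaled coverage equalled its TPM in both libraries, and with 0.1 added the log2 ratio of EGR1 was 1.06 in both columns. PHLDA1, a gene induced by growth factors, had 28.4 TPM in AS and 15.5 TPM in SC, a log2 ratio of 0.83. FOSL1, the AP-1 subunit FRA1, had 106 TPM in AS and 92.8 TPM in SC, a log2 ratio of 0.18. IER3, an early response gene that was the most abundant of all members, had 497 TPM in AS and 655 TPM in SC, a log2 ratio of -0.40. Of these 7 genes, 1 (14.3%, against 16.5% of all measured genes) was at least 2-fold higher in AS on TPM. The second on scaled coverage was EGR1, through the smaller added value.

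The members differed in GC content, the share of G and C bases in their longest coding transcript, from 37.8% for SOS1 to 65.8% for HRAS, and the log2 ratio was lower where GC content was higher. Over the 39 measured members the Spearman correlation of GC content with the log2 ratio was -0.73 on TPM and -0.80 on scaled coverage, and over 10632 measured coding genes it was -0.64 and -0.70. These genes were measured in the same pair of libraries and are not independent replicates, so the values are a description. The measured coding genes were also split by GC content into 10 groups of near equal size. In the group of lowest GC content (29.6% to 39.4%), the log2 ratio had a median of 0.89, and 41.4% of the genes were past 2-fold in AS. In the group of highest GC content (62.9% to 74.2%) the median was -0.29 and 0.752% of the genes were past 2-fold in AS. All the members that were 2-fold higher on both measures had a GC content of at most 42.4%, and HRAS, MAP2K2, RRAS and MAPK3 had at least 61.4%. The part of GC content in the differences was not tested.

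**Figure D4:**
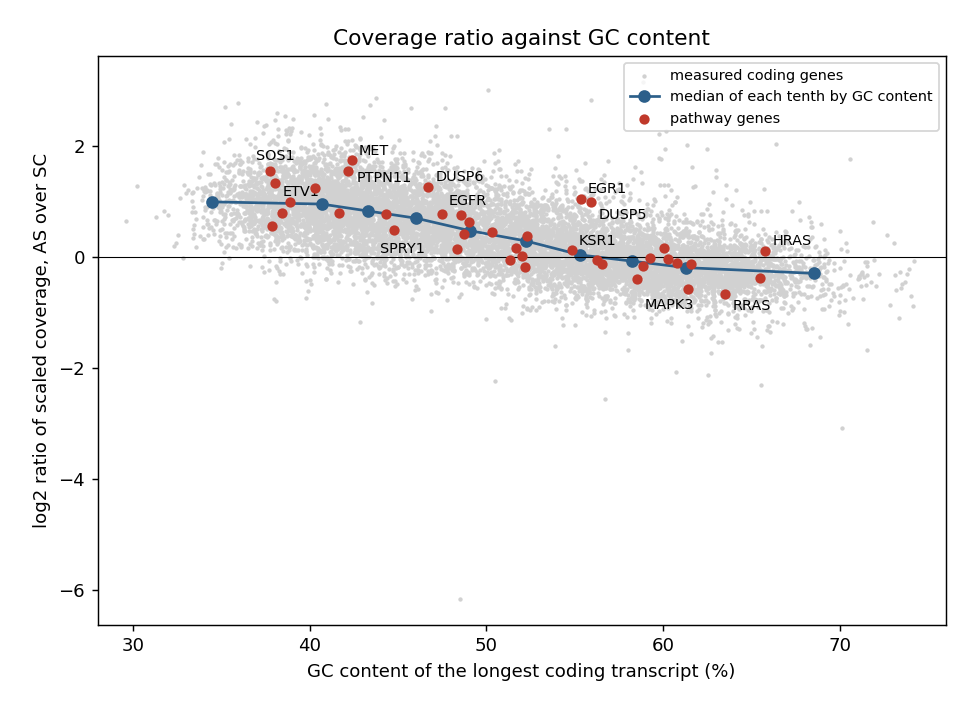
Log2 ratio of AS over SC on scaled coverage against the GC content of the longest coding transcript (%) for the measured members (red, some named) and all measured coding genes (grey), with the median of each of the 10 GC groups (blue) at the middle of its range. The medians are 1.00 in the group of lowest and -0.29 in the group of highest GC content, and most members follow them.

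Against the median of the coding genes in the same GC group, 27 of 39 measured members were above it on TPM and 20 of 39 on scaled coverage. MET lay 0.92 above the median of its group on scaled coverage, and PTPN11 lay 0.72 above it. DUSP5 and EGR1 both lay further above on this measure, at 0.95 for DUSP5 and 1.01 for EGR1, among genes with a median of 0.04. SOS1 lay 0.56 above the median of its group on scaled coverage and ETV1 0.33 above it. The order differed on TPM with 1 added. There MET lay 1.86 above the median of its group, ETV1 1.03, DUSP5 0.88, PTPN11 0.78, EGR1 0.62 and SOS1 0.14.

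A miR-494-3p site of at least 7 letters occurred in the longest 3′ UTR of 12 of the 39 measured members, or 30.8%, against 27.7% of 10560 measured coding genes. The measured members with a site were MET, IGF1R, INSR, DDR1, SHC1, PTPN11, NF1, KSR1, MAP2K1, SPRED1, ETV1 and PHLDA1. Of the 8 members that were 2-fold higher on TPM, 5 had a site and 3 did not, the 3 being EGFR, SOS1 and SPRY1. The share with a site among all 2-fold higher coding genes is not given here, so these counts show no enrichment. NF1 and KSR1, with a site, and EGFR and SPRY1, without one, were within 2-fold on scaled coverage. The median log2 ratio was 0.75 with a site and 0.18 without one, and the same medians over coding genes were 0.63 and 0.19. Members with a site also had a longer 3′ UTR, at a median of 4312 against 1209 bases, and a lower GC content, at a median of 46.7% against 52.3%. A match is a description and not a tested site, and the part of 3′ UTR length and GC content in these medians was not tested.

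Of the 30 members with a promoter in RefSeq (GRCh38.p14, from 250 bases before the start to 50 after it), 4 held the ETS box CCGGAAGT on either strand, which 4.14% of 35116 promoters did. These were NRAS, SHC1, NF1 and ERBB2. The cyclic AMP response element TGACGTCA was in 2 of the 30 (EPHA2 and NF1), against 1.85% of all promoters, and the AP-1 site TGANTCA in 1 (ERBB2), against 7.71%. For the serum response element, only a fixed sequence was searched, which was in 1 of the 30 (EGR1), against 0.0342% of all promoters. Other forms of this element were not searched, so these values count that sequence and not the element.

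Beyond the members, 104 other genes of the pathway were listed, and 56 were measured. On TPM, 4 of the 56 (7.14%) exceeded 2-fold in AS, below the 16.5% of all measured genes, and 1 was lower by as much. On scaled coverage 8 (14.3%) were higher, also below the 19.3% of all measured genes, and 1 was lower. The 4 were PPP1CB, RAP1B, RRAS2 and RPS6KA3, a kinase below ERK. The largest difference was in PPP1CB, a subunit of the phosphatase that helps to activate RAF, with 22.2 TPM in AS and 1.74 TPM in SC and a log2 ratio of 3.08, against 1.18 on scaled coverage. RAP1B, a RAS relative, had 40.4 TPM in AS and 12.8 TPM in SC, a log2 ratio of 1.58. RRAS2, another RAS relative, had 31.9 TPM in AS and 13.6 TPM in SC, a log2 ratio of 1.17. SHC2, an adaptor related to SHC1, was the gene that was lower, with 1.60 TPM in AS and 5.35 TPM in SC and a log2 ratio of -1.29. The median log2 ratio over these 56 genes was 0.37 on TPM, closer to that of all measured genes than the 0.53 of the members. On scaled coverage the medians were near one another, at 0.36 for these genes, 0.39 for the members and 0.33 for all measured genes.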

How the data were processed

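RNA-seq libraries of NCI-H2030 were prepared from total RNA with a strand-keeping (directional) kit, per the labels' protocols. The authors deposited 1 table per library with coverage, FPKM and TPM columns, per the file headers. Neither aligner nor quantifier is given in the sources used here. Rows of annotated genes and of assembled loci stood in the same table, and both kinds of row are on the scale of the deposited TPM signal. Coordinates in the tables are those of GRCh37, although the submitters' processing notes name GRCh38 and hg38: the largest end on chromosome 1 was 249232967 in the tables and 248937043 among genes of GENCODE 29. Rows of 1 symbol were summed. The ratio was log2((AS + 1)/(SC + 1)) on TPM. Scaled coverage is the deposited coverage over the library's coverage per FPKM, times its TPM per FPKM (2.13 in AS and 1.98 in SC). This measure, with its pseudocount of 0.1, was added after seeing the data. A gene's assembled locus was that of the longest overlap on its strand. GC content, 3′ UTRs and gene types came from GENCODE 29, matched by identifier. The members and all lists were chosen with earlier results of these data known. The calculations were tested on the levels of SC changed by known folds, with no library effect, which checks the code and not the findings. They used Python 3.11.15, pandas 2.3.3, numpy 2.4.6 and matplotlib 3.10.9. The alternatives were other columns, pseudocounts, filters and scalings. With 1 library a group, p-values were not computed.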

Additional observations from a re-analysis of the deposited data

How the results depend on the processing

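With 1 library a group, leaving out a replicate was not possible. No paired analysis was possible because each group has a single library. Of the members at least 2-fold higher in AS, 8 in the report, 7 were so on FPKM, after centring on the median of all measured genes and after trimmed mean scaling, 8 with no filter, 9 without mitochondrial genes and 12 with a pseudocount of 0.1. The count moved to 3 on scaled coverage with 1 added, to 2 with a pseudocount of 5 (MET and PTPN11) and to 2 with a filter at a mean of 5 TPM, which leaves 23 members. The count of members lower in AS, 0 in the report, was 1 on assembled loci, 1 after centring (ERBB3) and 2 after trimmed mean scaling (ERBB3 and RRAS). Except for assembled loci, the shares of all measured genes under these settings are not given here. These counts alone therefore do not show whether the members moved more than other genes. NF1 reversed on the assembled locus, to -0.74. Centring shifts all log2 ratios down by 0.28. Members near 0, such as ERBB2, HRAS, FGFR1, SPRY4 and FOSL1, thus lie below the median of all genes. Trimmed mean scaling lowers the log2 TPM of AS by 0.35 before 1 is added, so the ratios of low members shift by less. That of IGF1R went from 0.53 to 0.33. MET and PTPN11 stayed 2-fold higher under every setting tried, none of which adjusted for GC content. In the GC group that holds both, 34.6% of measured coding genes were 2-fold higher on TPM and 37.9% on scaled coverage. Low members such as EGFR, NF1, SOS1, IGF1R and SPRED1 rest on a mean coverage below 5 in both libraries, and read counts are not given.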
